A study of Mus musculus with 3 samples.

Results

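Cluster 6 was the group of cells with the transcriptome of megakaryocytes, the marrow cells that shed platelets, among cells sorted as endothelium from mouse hearts and from their co-cultures with embryonic stroma. Its members were the 310 cells that the deposited cluster table puts in cluster 6, out of 9562 cells in 7 clusters. This is 3.24% of the cells (95% exact binomial interval 2.90 to 3.62%, counting error only). Cell barcodes end in a suffix that names the sequenced library, and the cluster held 109 of 3507 cells with suffix 1, 152 of 3958 with suffix 2 and 49 of 2097 with suffix 3. These are shares of 3.11, 3.84 and 2.34%.

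Megakaryocytes arise from haematopoietic progenitors under the cytokine thrombopoietin. They copy their DNA without dividing, fill alpha granules and dense granules with chemokines, adhesive proteins and nucleotides, lay out a membrane system and extend tubulin-based proplatelets that break into platelets. GATA1 with its partner FOG1 (encoded by *Zfpm1*), RUNX1, FLI1, GFI1B, TAL1 and NF-E2 are the transcription factors best known for driving this programme, and several of them also act in red cell precursors. In the embryo, megakaryocytes appear with the first waves of blood formation in the yolk sac and later in the fetal liver.

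The study asked whether stroma from the embryonic aorta region can switch adult endothelium to blood formation. Hearts came from adult female mice that carry a transgene for green fluorescent protein (GFP), and GFP+CD31+VE-Cad+ cells that lacked CD41, CD45, PDGFRA and PDGFRB were sorted. They were sequenced fresh (0 h) or after 24, 48, 72 and 96 h of co-aggregation with PDGFRA+ stromal cells of E11.5 embryos, which descend from cells that once expressed *Mesp1* and carry DsRed, in medium with interleukin-3, stem cell factor and Flt3 ligand. Cells were sorted again from the aggregates as GFP+CD31+VE-Cad+PDGFRA-, a gate that no longer removes CD41+ or CD45+ cells, and the times were then mixed into 3 pools (A, B and C). Every cell used here therefore passed a gate for GFP, and no group in the matrix is a single time, a single animal or a culture without stroma.

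The suffixes separate 3 libraries, and values are given in each, but the labels do not tie a suffix to a pool by name or a cell to a time, so neither pools nor times are compared. The clusters were made from the genes described below, and the tertiles from platelet genes, so differences between cluster 6 and other cells, or within it, are a description, and no p-value is given. Levels are summed UMIs (unique molecular identifiers, each a captured transcript) per 10,000 UMIs of the group. They count transcript ends and are not divided by length. The median cell of cluster 6 held 32186 UMIs and 5368 genes, against 21225.5 UMIs and 4885 genes over all cells, and the medians of the cluster were 39153, 14671.5 and 60762 UMIs by suffix. Across all cells 13 barcode sequences occurred in more than 1 library, and 1 cell of cluster 6 carried such a sequence.

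The 6 marker genes, which gave the cluster its label, were higher in its pooled cells than in those of every other cluster. *Pf4*, the platelet factor 4 chemokine of alpha granules, stood at 175, 129 and 196 UMIs per 10,000 by suffix and took 1.67% of all UMIs of the cluster. It was 344-fold above the level of all other clusters and 92.9-fold above cluster 1, the next highest at 1.8. *Ppbp*, which encodes the chemokine precursor of neutrophil-activating peptide 2, was 808-fold above the other clusters, with levels of 9.75, 5.81 and 7.64. All 3 libraries of cluster 6 lay far above every other cluster for both chemokines.

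Surface markers gave the same picture at lower levels. *Itga2b*, the CD41 integrin chain that pairs with the product of *Itgb3* to bind fibrinogen, was at 6.65, 6.56 and 7.16 UMIs per 10,000, 70.5-fold above the other clusters. *Gp1bb*, a chain of the receptor for von Willebrand factor, reached 8.31, 7.13 and 8.90, and *Treml1*, a receptor stored in platelet granules, 6.36, 5.34 and 5.94. The spread between libraries was small beside these distances. *Gp1bb* overlaps *Sept5* on the same strand, so reads from the shared stretch may be split between these genes. *Gata1* was the lowest of the 6 markers at 1.59, 1.43 and 1.5, and it was nearest to another cluster, 6.97-fold above cluster 5.

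**Figure D1:**
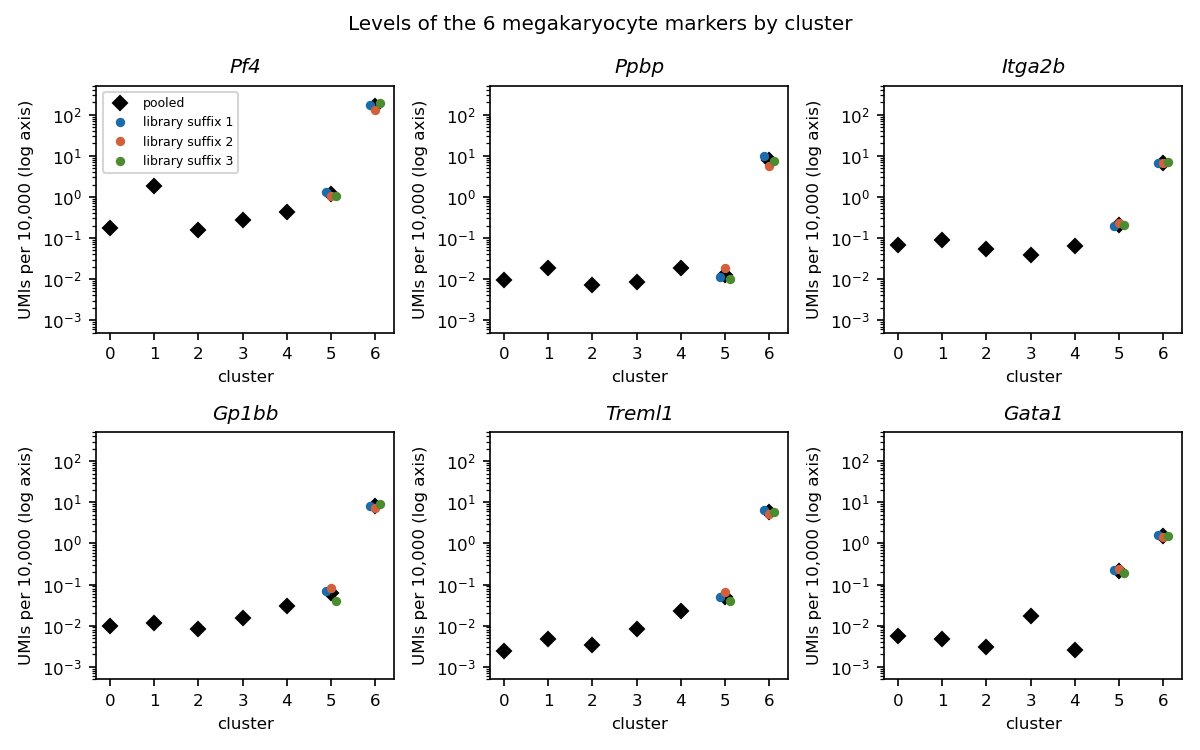
Level of each of the 6 markers (UMIs per 10,000 UMIs of the group, log axis) in the 7 clusters; diamonds are pooled cells and coloured points are the 3 library suffixes in clusters 5 and 6. In every panel the cluster 6 points of the 3 libraries lie together and above all other clusters, from 166.7 for *Pf4* to 1.51 for *Gata1*.

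Promoter sequence is shown for the 4 markers in which a searched motif lay upstream of the start, because these genes are high together in cluster 6. The bases are the 250 before each gene's RefSeq start on GRCm38.p6, read 5′ to 3′ on the gene's strand, and capitals mark the letters of a motif or its reverse complement. *Pf4* is on the + strand (chr5:90772185-90772434) and *Ppbp* lies upstream of it on the same strand (chr5:90768268-90768517), and both stretches are intergenic in GENCODE M21. *Itga2b* is on the - strand (chr11:102469884-102470133), where other transcripts of the gene have exons, and *Gata1* is on the - strand (chrX:7967911-7968160), inside an intron of its longer transcripts.
Pf4: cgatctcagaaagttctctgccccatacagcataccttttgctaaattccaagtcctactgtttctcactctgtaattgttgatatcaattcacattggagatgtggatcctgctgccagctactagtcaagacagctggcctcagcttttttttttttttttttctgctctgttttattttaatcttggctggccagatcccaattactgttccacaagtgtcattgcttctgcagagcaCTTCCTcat
Ppbp: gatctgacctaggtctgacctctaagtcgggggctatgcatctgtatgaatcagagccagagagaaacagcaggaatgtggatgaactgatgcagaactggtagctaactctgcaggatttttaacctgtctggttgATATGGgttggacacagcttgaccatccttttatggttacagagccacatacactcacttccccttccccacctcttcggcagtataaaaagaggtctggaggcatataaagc
Itga2b: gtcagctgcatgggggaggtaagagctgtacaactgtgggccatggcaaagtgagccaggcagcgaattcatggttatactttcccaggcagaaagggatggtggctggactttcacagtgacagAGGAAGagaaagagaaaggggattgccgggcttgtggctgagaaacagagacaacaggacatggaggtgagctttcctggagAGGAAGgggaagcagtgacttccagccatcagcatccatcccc
Gata1: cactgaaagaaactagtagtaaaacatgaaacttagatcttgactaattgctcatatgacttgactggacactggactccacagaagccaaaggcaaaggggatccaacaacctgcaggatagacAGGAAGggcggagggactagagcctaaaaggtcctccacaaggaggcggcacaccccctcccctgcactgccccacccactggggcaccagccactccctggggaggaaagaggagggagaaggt

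Motifs were searched on both strands of 300-base windows, 250 before to 50 after the start. The GATA-type motif was spelled as the letters AGATAA, the RUNX-type motif as the letters TGTGGT, the ETS-type motif as the letters AGGAAG and the SRF-type motif as the letters CCATAT, and none of their matches in these genes overlapped. ETS-type letters occurred in *Pf4*, *Itga2b* (2 matches), *Gata1* and, after the start, *Gp1bb*. *Ppbp* held the SRF-type letters once and *Treml1* none of the 4 motifs. The GATA-type match of the 6 markers was in *Pf4*, at position 37 after the start, within these 30 bases (chr5:90772455-90772484):
Pf4 after the start: actgggcaggcagtgaAGATAAaacgtgct

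Among 694 windows of 501 genes at least 2-fold higher in cluster 6, 10.4% held the GATA-type, 15.1% the RUNX-type, 38.3% the ETS-type and 5.91% the SRF-type letters. The shares over all 32851 windows of the table outside chromosome 18 were 11.2, 16.8, 35.4 and 6.68%. Over the 8912 windows of genes expressed enough to be compared they were 6.24, 11.9, 33.1 and 3.82%. A match here is a run of letters and not a binding site.

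Single cells differed widely in these genes. *Pf4*, counted for each 10,000 UMIs a cell held (CPTT), ranged from 0 to 745.5 with a median of 108.0 and quartiles of 19.7 and 249.1, and 21 of the 310 cells had none. *Ppbp* was sparser, since 143 cells had none and the median was 0.294. *Itga2b* had the fewest cells at 0 of the 6 markers, 9, with quartiles of 2.35 and 9.31.

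With the study's threshold of 0.5 CPTT for a positive cell, 283 of the 310 cells were positive for at least 4 of the 6 markers, which is 91.3% (87.6 to 94.2%). The share was 92.7, 88.2 and 98% by suffix. Among all other clusters 24 of 9252 cells reached 4 markers (0.259%), and 16 of these were in cluster 5. When each cell was thinned to 5,000 UMIs and 1 UMI made it positive, 74.8% of cluster 6 and 0.0764% of other cells had at least 4 markers. Free RNA in droplets can give UMIs to cells that do not express a gene: a *Pf4* UMI was found in 87.4% of thinned cluster 6 cells and in 7.53 to 22.1% of those of the other clusters, while for *Ppbp* the shares were 44.3% and at most 1.07%.

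**Figure D2:**
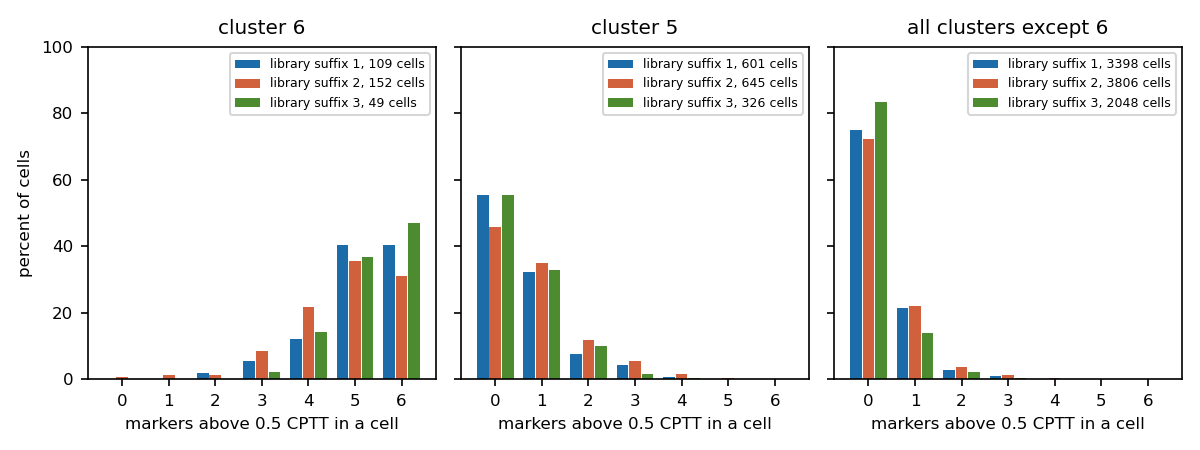
Percent of cells (vertical axis) by how many of the 6 markers exceed 0.5 CPTT (horizontal axis) in cluster 6, in cluster 5 and in all clusters except 6, which include 5, with 1 bar for each library suffix. In cluster 6 most cells hold 5 or 6 markers, 116 and 114 cells over the libraries, while outside it 7008 of 9252 cells hold none.

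The cells below 4 markers did not share one profile. Of these, 24 cells had 2 or 3 markers, with *Pf4* at 8.21 and *Runx1* at 1.05 UMIs per 10,000, and 3 cells, all of suffix 2, had at most 1. Summed levels of the 18 endothelial genes were 9.64 in the cells with 4 or more markers, 12.4 in those with 2 or 3, and 23.7 in the last 3 cells, against 45.5 UMIs per 10,000 in cells of other clusters with 3 or fewer markers.

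In all, 615 of 8786 genes compared were at least 2-fold higher in cluster 6 than in all other clusters, in the pooled sums and in each library, which is 7.0% of them, and 1337 (15.2%) were at least 2-fold lower. Of the higher genes, 305 were also at least 2-fold above each single cluster. The 15 with the largest ratio at a level of at least 1 were *Ly6g6f*, *Ppbp*, *F2rl2*, *Treml1*, *Gp1bb*, *Pf4*, *Gp5*, *Gp1ba*, *Slc14a1*, *Gnaz*, *Gp9*, *Mrvi1*, *Thbs1*, *Tmem40* and *Rab27b*. *Ly6g6f*, a small surface protein of platelets, led with a 1018-fold ratio at levels of 1.38, 1.40 and 1.54, a log2 ratio of 9.99 that was 9.15 by the mean of cells and 9.29 in thinned cells. The 10 lowest were *C1qb*, *C1qc*, *Hmox1*, *Gap43*, *Dab2*, *Tyrobp*, *Lcp1*, *Igf2*, *Nrp1* and *Ramp2*, among them complement genes of macrophages, leukocyte genes (*Tyrobp*, *Lcp1*) and endothelial receptors. *Ramp2*, a partner of the adrenomedullin receptor, was at 0.769, 0.883 and 0.620 against 6.31 in the other clusters and 18.2 in cluster 0.

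Most platelet receptors were high. Of the 24 listed receptors compared, 20 were called higher and none lower, beside 7.0% of all genes higher and 15.2% lower. Their median log2 ratio to the other clusters was 6.01, beside -0.14 over all genes compared. The 4 chains of the von Willebrand factor receptor complex were all present: beside *Gp1bb*, *Gp9* was at 5.64, 4.15 and 5.33, *Gp5* at 4.30, 3.54 and 4.63, and *Gp1ba* at 1.05, 1.23 and 1.13. *Gp6*, the collagen receptor, was low in level (0.962, 0.727 and 0.770) but 609-fold above the other clusters, a log2 ratio of 9.25 that became 9.89 without suffix 2.

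Receptors for thrombin and other agonists were unequal. *F2r* and *F2rl2*, which encode the thrombin receptors PAR1 and PAR3, were at 5.47 and 3.74 UMIs per 10,000, and *F2rl3*, for the thrombin receptor PAR4, at 0.803. *F2r* was shared with cluster 0 (2.08), whereas *F2rl2* did not exceed 0.0153 in any other cluster. For nucleotides, *P2rx1* was at 2.11 and *P2ry1* at 0.933, while *P2ry12*, the target of antiplatelet drugs, was at 0.0204, below its level of 0.197 in cluster 5. *Clec1b*, the receptor for podoplanin, stood at 5.41, 4.20 and 4.83 and was also found in cluster 2 at 2.16, so its ratio to the other clusters was 3.62. *Cd9*, a tetraspanin that platelets carry in quantity, was at 10.0 here and at 6.43 in cluster 1.

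Granule cargo was led by the 2 chemokines and by *Thbs1*, the adhesive protein thrombospondin 1, at 9.58, 12.5 and 9.80 UMIs per 10,000. Of 17 cargo and granule genes compared, 13 were higher, 1 was lower and 3 were neither, beside 7.0% of all genes higher and 15.2% lower. Their median log2 ratio was 2.13. *Tgfb1*, the growth factor TGF-beta 1, was at 9.25, 7.90 and 8.89 and 4.11-fold above the other clusters. *Rab27b*, a GTPase of granule docking, was 111-fold higher at 7.21, 6.0 and 6.62. *F5*, which encodes coagulation factor V, was 51.6-fold higher at 0.925, and *Slc35d3*, a transporter linked to dense granules, 67.1-fold higher at 1.37. All of these genes were called in each of the 3 libraries.

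Some classical cargo genes were not particular to cluster 6. *Vwf*, von Willebrand factor, was at 1.23 UMIs per 10,000 here and at 5.21 in cluster 0. *Clu*, which encodes clusterin, was at 2.71 here and 1.48 in cluster 1, although its log2 ratio to all other clusters together was 4.04. *Srgn*, the core protein of granule proteoglycan, was at 1.72 here and 3.93 in cluster 1. *Pdgfa*, a chain of platelet-derived growth factor, was the lower member, at 0.0538 against 0.432 in the other clusters, and *Pdgfb*, the other chain, was at 0.681 against 0.456. *Selp*, the P-selectin of alpha granule membranes, was near the floor at 0.0330, 0.0561 and 0.0318.

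**Figure D3:**
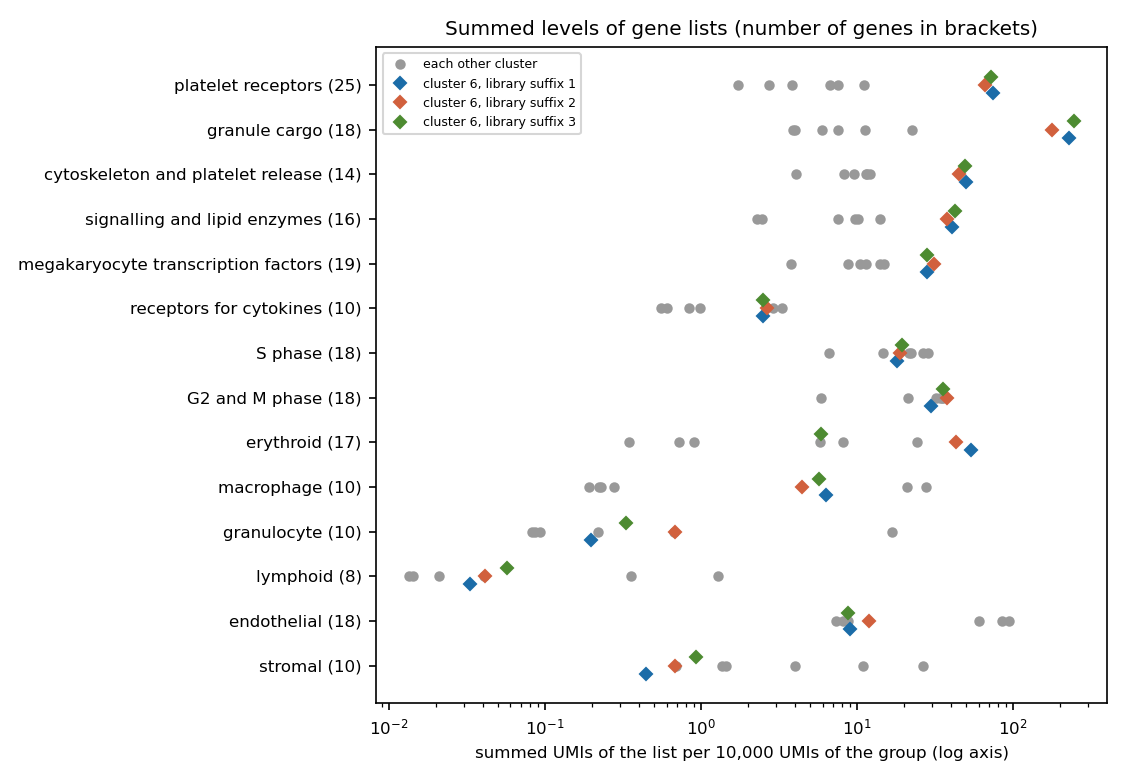
Summed level of each gene list (UMIs per 10,000, log axis), with coloured diamonds for the 3 library suffixes of cluster 6 and a grey point for each of the other 6 clusters. Platelet receptors and granule cargo of cluster 6, 71.0 and 216 UMIs per 10,000 over its libraries, lie to the right of every other cluster, and its endothelial genes, at 9.82, lie beside the lowest of them.

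Among genes of the cytoskeleton and platelet release, 12 of 14 were called higher, beside 7.0% of all genes. Their median log2 ratio was 2.49, beside -0.14 over all genes compared. *Tuba4a*, an alpha tubulin of platelets, was at 6.74, 5.11 and 6.34 UMIs per 10,000, and *Fermt3*, the kindlin that activates integrins, at 10.0, 8.04 and 9.19. These were 23.7-fold and 21.0-fold above the other clusters. *Tln1*, which encodes talin, was 4.05-fold higher at 9.58. *Tubb1*, the beta tubulin of the platelet ring, was 550-fold above the other clusters but at 0.389, 0.269 and 0.356 only. The 2 genes not called were *Myh9*, the non-muscle myosin mutated in inherited low platelet counts, at 3.12 against 1.70, and *Wdr1*, an actin turnover factor, at 2.73 against 1.56.

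Signalling and lipid genes were called higher in 13 of 16 cases, lower in 1 and neither in 2, beside 7.0% of all genes higher and 15.2% lower. *Alox12*, platelet 12-lipoxygenase, was at 3.19, 2.60 and 3.1 UMIs per 10,000 and 85.5-fold above the other clusters, a log2 ratio of 6.42 that was 5.66 by the mean of cells and 5.60 in thinned cells. *Tbxas1*, thromboxane synthase, was 31.1-fold higher at 0.804, and *Ptgs1*, the cyclooxygenase that aspirin blocks, 3.31-fold higher at 1.61. Downstream of receptors, *Plek*, the protein kinase C substrate pleckstrin, was at 8.07, *Rasgrp2*, an activator of Rap1, at 7.41 and *Lat*, the adaptor of collagen receptor signalling, at 2.45. The exception in direction was *Gng11*, a G protein gamma subunit, at 1.89 against 5.30 in the other clusters and 10.4 in cluster 1.

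Transcription factors of the lineage were raised by smaller factors: 10 of 19 were called higher, 1 lower and 8 neither, with a median log2 ratio of 1.11. Over all genes compared, 7.0% were called higher and 15.2% lower. *Gfi1b*, a repressor shared with red cell precursors, was at 1.58, 1.61 and 1.68 UMIs per 10,000 and 27.8-fold above the other clusters. *Zfpm1* was at 2.82, 3.39 and 3.25 (6.74-fold), *Nfe2* at 0.823, 0.836 and 0.731 (13.7-fold) and *Tal1* at 1.34, 1.70 and 1.49 (4.59-fold). *Meis1*, a homeodomain factor, was at 1.34 and was matched in cluster 4 at 1.43.

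*Runx1*, needed for the step from endothelium to blood, was at 1.58, 1.82 and 1.63, against 0.373 in all other clusters and 1.30 in cluster 5. It was thus higher than in the other clusters together but 1.28-fold above cluster 5, short of a call. *Fli1* missed the call too, at 2.11, 2.70 and 2.09 against 1.1, and *Lmo2* and *Mef2c* were within 2-fold of the other clusters. *Gata2*, the GATA factor of stem and early progenitor cells, was at 0.282 here and 0.325 there. *Cbfb*, the partner of RUNX1, was the lower member, at 0.163, 0.245 and 0.181 against 0.551.

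Of 6 cytokine receptors compared, 2 were called higher, 2 lower and 2 neither, beside 7.0 and 15.2% of all genes higher and lower. *Epor*, the receptor for erythropoietin, was at 0.603, 0.588 and 0.531 UMIs per 10,000 and 12.7-fold above the other clusters. The receptors for the 3 cytokines of the medium were low. *Il3ra*, the alpha chain for interleukin-3, was at 0.110, *Kit*, for stem cell factor, at 0.0798 against 0.289 elsewhere, and *Flt3* at 1 UMI in the whole cluster.

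Stem and progenitor genes were mostly lower than in the other clusters together. Of 9 compared, 6 were called lower, 2 higher and 1 neither, beside 15.2% of all genes lower and 7.0% higher. *Cd34* was at 0.528, 0.807 and 0.569 UMIs per 10,000 against 4.73 in the other clusters. *Procr*, *Mecom* and *Hoxa9*, linked to stem cells, were each under 0.07. The higher members were *Slamf1* (CD150, a marker of stem cells and of megakaryocytes), 31.7-fold at 0.203, and *Angpt1*, the ligand of TIE2, 6.30-fold at 0.507. *Thpo*, the gene of thrombopoietin itself, had no UMI in cluster 6. The 13 stem and progenitor genes summed to 1.88 UMIs per 10,000 in cluster 6. They reached 16.3, 19.5 and 7.30 in clusters 0, 1 and 2, where endothelial genes were also highest, and 1.99, 2.91 and 4.31 in clusters 3, 4 and 5. Against cluster 5 alone, 8 of 12 were lower, 1 higher and 3 neither, beside 8.13% of all genes lower and 7.22% higher.

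Cluster 5 was the most similar of the other clusters, with a Pearson correlation of levels across 3061 genes of 0.851, against 0.50 to 0.749 for the rest (log2 of the level plus 0.1). The correlation is across genes of the same libraries and describes them. Cluster 5 held 1572 cells and expressed *Ptprc* (CD45) at 1.08 UMIs per 10,000, *S100a8* and *S100a9* at 3.49 and 3.74 and *C1qb* at 6.98, genes of granulocytes and macrophages. In cluster 6 *Ptprc* was at 0.0251, although the second gate kept CD45+ cells.

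Between these clusters, 602 of 8341 genes were at least 2-fold higher in cluster 6 in each library (7.22%) and 678 lower (8.13%). Platelet receptors were higher in 22 of 24 cases and granule cargo in 13 of 15, beside a median log2 ratio of -0.06 over all genes compared. The 8 largest ratios were those of *Ly6g6f*, *Ppbp*, *Alox12*, *F2rl2*, *Sardh*, *Gnaz*, *Thbs1* and *Pf4*. *Sardh*, a mitochondrial enzyme of sarcosine breakdown, was at 2.49, 1.97 and 2.56 here, 224-fold above cluster 5, and *Gnaz*, the G protein alpha subunit of platelets, at 2.14, 2.56 and 2.65, 208-fold above it.

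Of the 19 transcription factors compared, 8 were higher than in cluster 5 and *Cbfb* was lower, beside 7.22 and 8.13% of all genes. *Gata1* and *Gfi1b* differed by 6.97-fold and 7.59-fold. *Runx1*, *Lyl1*, *Mafg* and *Cbfa2t3* did not reach 2-fold. All 8 granulocyte genes compared and 9 of 10 macrophage genes were lower in cluster 6, beside the same 8.13% of all genes. The lowest against cluster 5 were *S100a9*, *S100a8*, *Mrc1*, *Stfa1*, *Aif1*, *Ctss*, *Cx3cr1* and *C1qb*. *Stfa1* has near-identical copies, so its count is uncertain.

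The few myeloid UMIs of cluster 6 were uneven between libraries. *S100a8* was at 0.00471, 0.100 and 0.00318 by suffix, and *C1qb* at 0.198, 0.0325 and 0.0318. Single libraries held most of the UMIs of each, suffix 2 for the first and suffix 1 for the second. The 10 macrophage genes summed to 5.53 UMIs per 10,000, of which *Fcer1g*, the signalling chain that also serves the collagen receptor of platelets, gave 4.55 (5.08, 3.62 and 4.84). Of 9 mast cell and basophil genes, 8 had no UMI, and a count of 0 puts the upper limit of the expected count at about 3 UMIs. Of the 8 lymphoid genes 4 had none, *Cd3e*, *Rag1* and *Dntt* among them. Over all genes 12058 of 27994 had no UMI in cluster 6, a share near that of the lymphoid list.

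Genes of the endothelium, the starting tissue and the gate, were low. Of 18 compared, 17 were called lower than in the other clusters, beside 15.2% of all genes. Their median log2 ratio was -2.70, beside -0.14 over all genes compared. *Cdh5*, the VE-cadherin of the gate, was at 0.410, 0.662 and 0.458 UMIs per 10,000 against 3.52, and *Pecam1*, CD31, also carried by platelets, at 0.688, 0.931 and 0.728 against 2.80. *Cdh5* was at 0 in 183 of the 310 cells, and 43.4% of cells of suffix 2 exceeded 0.5 CPTT against 16.5 and 16.3% in suffixes 1 and 3, whose cells were deeper. *Kdr*, the VEGF receptor, was at 1.08 against 3.42. The gene that was not called was *Esam*, an adhesion protein of endothelium and platelets, at 1.26, 1.18 and 1.24 against 2.52.

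Summed endothelial levels were 8.98, 11.8 and 8.78 by suffix, while clusters 0, 1 and 2 reached 94.1, 84.6 and 60.1 and clusters 3, 4 and 5 stood at 8.76, 7.29 and 8.06, below the 9.82 of cluster 6. Against cluster 5, 1 gene of 16, *Esam*, was called higher and none lower, beside 7.22 and 8.13% of all genes. Whether these UMIs are the cells' own transcripts or free RNA of the droplets was not tested. Stromal genes summed to 0.657 UMIs per 10,000, below the 3.04 of the other clusters, and *Pdgfra* was at 0.0195.

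Red cell genes were higher than in all other clusters in 7 of 11 cases, beside 7.0% of all genes, but against cluster 5, where the list summed to 24.3 UMIs per 10,000, 2 of 13 were higher, 2 lower and 9 neither. In cluster 6 the list summed to 54.0, 43.0 and 5.82 by suffix, and few cells held much of it. *Hba-x* and *Hbb-y*, the alpha-like and beta-like globins of primitive red cells in the embryo, were at 13.6, 8.67 and 0.0127 and at 24.2, 20.0 and 0.149. The libraries did not agree on these globins, and suffix 3 was far below the other two. A threshold of 100 CPTT of *Hba-x*, *Hbb-bh1* and *Hbb-y* together, set after their values were seen, was passed by 5 of the 310 cells (1.61%), 2 of suffix 1 and 3 of suffix 2.

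These 5 cells had no *Pf4* UMI and held *Alas2*, the first enzyme of haem synthesis in red cells, at 7.16 UMIs per 10,000, and 1 of them had 4 or more markers. Without them the red cell list summed to 7.10, *Hba-x* was at 0.0385 and *Hbb-y* at 0.215, and 92.5% of the other 305 cells had at least 4 markers. What remained of *Hbb-bh1*, another embryonic globin, was at 1.65 and of *Hbb-bt*, an adult globin, at 0.967. Over all 310 cells, 112 had a *Hbb-bh1* UMI and 116 a *Hbb-bt* UMI, and the top 5 cells for each gene held 66.1 and 56.2% of its UMIs. In suffix 3, which held none of the 5 cells rich in embryonic globin, 5 cells had 376 of the 426 *Hbb-bt* UMIs and 1 of them 274. Cells above the same threshold were also found in cluster 5 (11 cells), cluster 2 (9) and cluster 0 (1). Free globin RNA from lysed red cells was not measured apart from that of cells.

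*Klf1*, the factor that drives red cell genes, was at 0.104, 0.0620 and 0.0509, below cluster 5 at 0.307. *Car2*, a carbonic anhydrase, was at 2.01 and 4.55-fold above the other clusters.

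Of 9 genes of fetal cells compared, 5 were called lower than in the other clusters together, 1 (*Hbb-bh1*) higher and 3 neither, beside 15.2% of all genes lower and 7.0% higher. Against cluster 5, 1 of 9 was lower, beside 8.13%. The list, which holds embryonic globins, summed to 24.5, 20.3 and 5.25 UMIs per 10,000 by suffix, against 22.5, 32.2 and 24.9 in the other clusters, and to 5.34, 8.30 and 5.25 without the 5 cells rich in embryonic globin. *Lin28b*, a repressor of let-7 microRNAs in fetal blood cells, was at 0.231, 0.334 and 0.245 UMIs per 10,000, near the 0.235 of the other clusters. *Hmga2*, a chromatin protein downstream of it, was at 0.585 against 3.11, and *Igf2bp1* at 0.745 against 1.97. *Igf2* and *H19*, imprinted growth genes, were at 1.06 and 1.0 against 9.17 and 7.35, where cluster 0 alone held 37.0 and 33.0.

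Cell cycle genes stood near the level of the other clusters. None of 18 S phase genes and none of 18 G2 and M phase genes was called, beside 7.0% of all genes higher and 15.2% lower. Their median log2 ratios were -0.31 and 0.10. In cells thinned to 5,000 UMIs a *Mki67* UMI was found in 60.5% of cluster 6 (54.8 to 66.0%), or 52.8, 63.8 and 67.3% by suffix. The other clusters ran from 9.53% in cluster 1 to 65.3% in cluster 5. *Ccnd3*, the D cyclin tied to endomitosis, was called higher, at 5.83, 4.90 and 5.18 against 2.34. *Cdkn1a* and *Myh10*, the non-muscle myosin silenced as megakaryocytes become polyploid, were lower, at 0.136 against 0.559 and at 0.480 against 1.64. In the list on polyploidy that holds these genes 1 of 11 was higher and 2 were lower, shares near the 7.0 and 15.2% over all genes compared. DNA content was not measured.

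Cells of cluster 6 were then ordered by the share of their UMIs from the 43 platelet receptor and granule cargo genes, and cut within each library into a top, a middle and a bottom tertile of 102, 103 and 105 cells. The median share was 5.16, 2.15 and 0.488%, and *Pf4* gave 58.1% of these UMIs. The tertiles are ranges of 1 continuous score, since 51 cells lay within 10% of a bound. Median depth was 31612.5, 30662 and 36197 UMIs from top to bottom, but in suffix 2 it was 21297, 9447 and 16574. The genes of the score are left out of the counts that follow. The order was made from the cells' own counts, so the differences describe it.

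Of 8011 genes compared, 459 were at least 2-fold higher in the top than in the bottom tertile in each library (5.73%) and 408 lower (5.09%). When the tertiles were cut from cells thinned to 5,000 UMIs, 476 were higher and 404 lower. The counts moved by over 1.5 times when a library was left out, to 712 higher without suffix 3 and to 643 and 675 lower without suffixes 1 and 2, and by pooled ratios alone, to 834 and 1001. Cytoskeleton genes were higher in 12 of 14 cases, with a median log2 ratio of 2.19 beside -0.14 over all genes. *Myl9*, the myosin light chain that contracts platelets, was at 10.6, 4.39 and 5.48 UMIs per 10,000 in the top tertile and at 0.0196, 0.190 and 0.796 in the bottom tertile. *Tubb1* was at 0.732 and 0.0966, a 7.58-fold difference. Signalling genes were higher in 9 of 16 cases, among them *Alox12* at 6.70 and 0.465.

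The 8 genes with the largest ratios were *Actc1*, *Myl9*, *Hpgd*, *Gsn*, *Alox12*, *Ppp1r14a*, *Trpc6* and *Slpi*. *Actc1*, the cardiac actin that is also made outside the heart, was at 1.98 in the top and 0.0131 in the bottom tertile, where suffixes 1 and 3 had no UMI. Of the other 4 heart muscle genes listed, *Tnnt2*, cardiac troponin T, was at 0.0929 in the top and 0.00522 in the bottom tertile with 63 UMIs in the whole cluster, *Ttn* had 8 UMIs, and *Myh6* and *Nppa* had 1 each. All 4 lay below the minimum level for a comparison. *Hpgd*, which inactivates prostaglandins, was at 3.60 and 0.222, a 16.2-fold difference, and *Trpc6*, a calcium channel of platelets, at 1.5 and 0.107, a 14.0-fold difference.

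**Figure D4:**
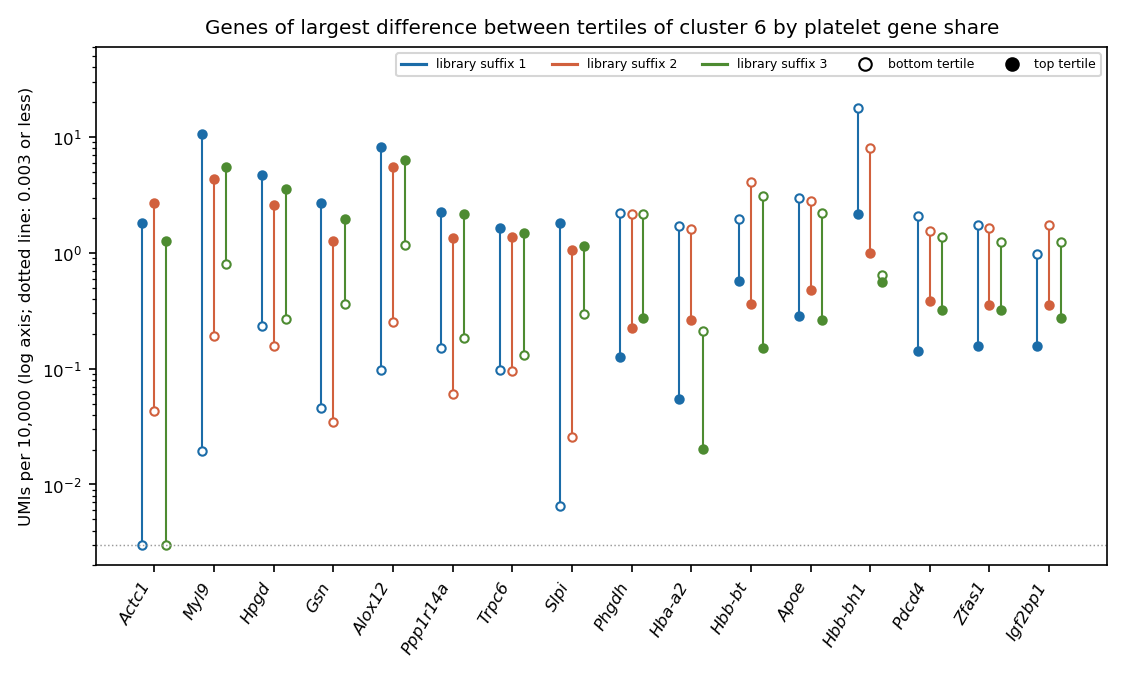
Level of the 8 genes at each end of the comparison (UMIs per 10,000, log axis) in the bottom tertile (open points) and top tertile (filled points) of cluster 6 by platelet gene share, with 1 pair for each library suffix and values under the axis floor on the dotted line. *Myl9* goes from 0.303 in the bottom to 6.91 in the top tertile over all libraries, *Phgdh* from 2.18 to 0.203, and *Hbb-bh1* is nearly level in suffix 3.

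In the other direction *Phgdh*, the first enzyme of serine synthesis, was at 0.203 in the top and 2.18 in the bottom tertile, a 10.7-fold difference. *Apoe*, a lipid carrier, was at 0.349 and 2.71, *Pdcd4*, an inhibitor of translation, at 0.282 and 1.72, and *Igf2bp1* at 0.262 and 1.29. *Myb*, a factor of early progenitors that falls as megakaryocytes form, was at 0.00282 in the top and 0.266 in the bottom tertile. *Hba-a2*, *Hbb-bt*, *Hbb-bh1* and *Zfas1*, a noncoding RNA, were the others of the 8 lowest, but 4 of the 5 cells rich in embryonic globin lay in the bottom tertile. Without these cells *Hba-a2* turned round, to 0.124 in the top and 0.0714 in the bottom tertile, *Hbb-bh1* fell to a 2.01-fold difference, and *Hbb-bt*, of whose UMIs 5 of the 310 cells held 56.2%, stood at a 5.38-fold difference.

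Of 19 lineage factors none was higher and 2, *Gata2* (0.166 and 0.481) and *Cbfb* (0.0732 and 0.287), were lower in the top tertile, beside 5.73 and 5.09% of all genes. *Gata1* was at 2.16 and 1.07, past 2-fold in the pooled sums but not in each library, *Gfi1b* at 1.86 and 1.52, *Zfpm1* at 2.97 and 3.17 and *Runx1* at 1.96 and 1.35, and none reached a call. *Klf1* was at 0.00563 in the top and 0.191 in the bottom tertile. None of 16 endothelial genes was called, and their median log2 ratio was -0.82, beside -0.14 over all genes. A *Kdr* UMI was found in 45.5 and 41.0% of thinned cells of the top and bottom tertiles and a *Cdh5* UMI in 11.9 and 26.7%, or 12 and 43.1% in suffix 2, whereas suffix 1 went the other way (14.3 and 10.8%) and suffix 3 had 6.25 and 11.8%.

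S phase genes were lower in the top tertile in 9 of 18 cases, beside 5.09% of all genes. Their median log2 ratio was -1.39, beside -0.14 over all genes. *Mcm3*, a subunit of the replicative helicase, was at 0.766 and 2.65 UMIs per 10,000, and *Rrm2*, of ribonucleotide reductase, at 0.670 and 2.62. For G2 and M phase none of 18 was called, and the median log2 ratio was -0.73. Counted per thinned cell, the median number of S phase UMIs was 1, 4.5 and 2.5 by suffix in the top tertile and 12, 13 and 14 in the bottom tertile. The ranges of the 3 libraries did not overlap between the tertiles.

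The median of G2 and M phase UMIs was 1, 5.5 and 10.5 in the top and 13, 20 and 13 in the bottom tertile, so suffix 3 differed little. *Mki67* was found in 25.7, 44.0 and 56.3% of top and 70.3, 76.5 and 64.7% of bottom cells. The share of UMIs from ribosomal protein genes was 15.9% in the top and 22.4% in the bottom tertile and that of mitochondrial genes 3.28 and 2.87%. Their part in these differences was not tested.

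**Figure D5:**
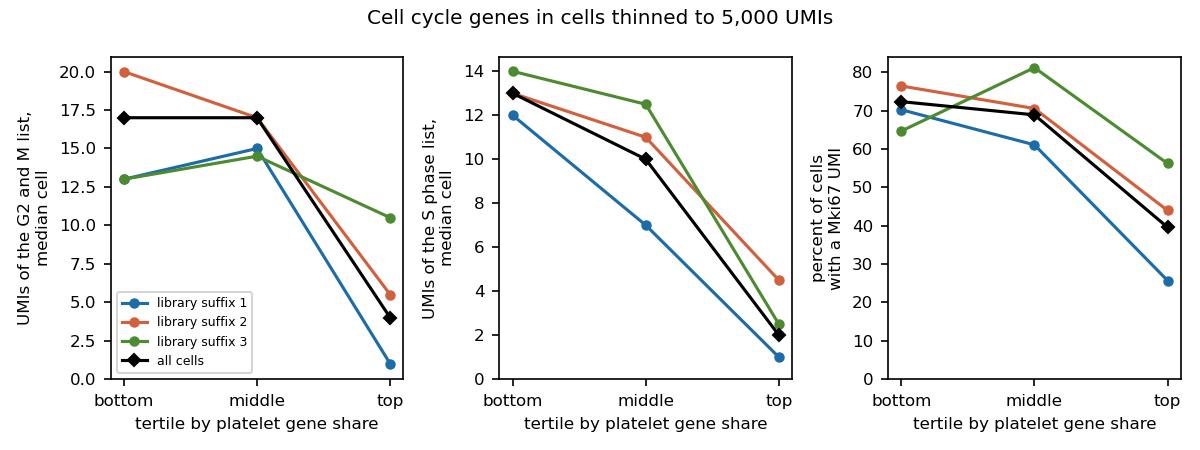
UMIs of the G2 and M phase list and of the S phase list in the median thinned cell, and percent of thinned cells with a *Mki67* UMI, in the bottom, middle and top tertiles of cluster 6 by platelet gene share; coloured lines are library suffixes and black diamonds all cells. S phase medians reach 1 to 4.5 in the top tertile in all 3 libraries, while the G2 and M phase median of suffix 3 is still 10.5.

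The hearts were from female mice, and Y-linked transcripts were found in cluster 6. After thinning, 26.5% of its cells (21.7 to 31.8%) had a UMI of *Ddx3y*, *Eif2s3y*, *Kdm5d* or *Uty*, or 25, 30.3 and 18.4% by suffix. *Xist*, the RNA of the inactive X chromosome of females, was found in 32.4%, or 21.3, 37.5 and 40.8%. In thinned cells both occurred together in 8 of 309, all of suffix 2, and neither in 43.7%. Before thinning both occurred together in 42 of 310 cells (13.5%), or 12, 26 and 4 cells by suffix, and neither in 6.45%. The other clusters held Y-linked UMIs in 26.4 to 45.9% of thinned cells, and 62.3% of cluster 6 cells had one before thinning. Which mouse each cell came from, and how far free RNA adds to these shares, was not tested.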

How the data were processed

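Single-cell libraries (10x Genomics 3′, version 3 chemistry in the study's methods) were sequenced from 3 pools. The submitters' processing notes name Cell Ranger 3.1.0 and Seurat 3.1.5, and the genome build was mm10. The authors deposited a table of UMI counts for 27998 genes in 9562 cells, a table of the same counts scaled per cell and put on a natural log scale, which matched the counts (largest difference 6.2e-15) and served as an alternative when averaged over cells and put back on a linear scale, and a table of UMAP coordinates (a score without unit, not analysed further) with the cluster number that the authors assigned by Leiden clustering. The methods state that singlets were kept, and no doublet caller was run here.

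Counts were summed by cluster and library suffix and given per 10,000 UMIs, with exact Poisson or Clopper-Pearson 95% intervals, which cover counting error only. Since the clusters and tertiles were defined from the same cells' counts, no test was made. A gene was compared when it had at least 0.1 UMIs per 10,000 in the higher group, and called when it differed at least 2-fold pooled and in each of the 3 libraries. Genes of equal symbol were summed (4 symbols). Cells were thinned to 5000 UMIs (seed 1), which left out 90 cells, 1 of cluster 6. The scripts were tested on simulated data. Cluster members and gene lists were chosen with earlier results of these data known. Named genes are the listed ones, the 15 highest and 10 lowest against all other clusters and the 8 at each end against cluster 5 and between tertiles, with a level of at least 1 in whichever group was higher and a ratio of 1 sign in all 3 libraries. Some listed genes are counted in their lists but not reported by name here. Promoters came from RefSeq (GRCm38.p6); those of *Gp1bb* and *Treml1*, with no motif before the start, are not printed. Scripts ran in Python 3.11.15 with matplotlib 3.10.9, scipy 1.17.1, numpy 2.4.6 and pandas 2.3.3. Alternatives were a higher minimum level, a 4-fold threshold, pooled ratios, means of cells, thinned cells, other marker thresholds, each library left out and the deepest 10% of cells left out.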

Additional observations from a re-analysis of the deposited data

How the results depend on the processing

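The counts of genes depend on the thresholds. With a minimum of 1 UMI per 10,000, 218 genes were higher and 196 lower than in all other clusters, 193 higher and 110 lower than in cluster 5, and 209 higher and 91 lower in the top than in the bottom tertile. At 4-fold the first 4 counts were 315, 580, 278 and 338. With pooled ratios alone, 834 genes were higher and 1001 lower in the top tertile. Leaving out each library in turn gave 641 to 647 genes higher and 1356 to 1437 lower than in all other clusters, 626 to 671 and 699 to 752 for cluster 5, and 501 to 712 and 584 to 675 for the tertiles. The tertiles changed most without suffix 3 (712 higher) and without suffixes 1 and 2 (643 and 675 lower). A call then needs agreement of 2 libraries in place of 3.

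The cluster held 2.82 to 3.5% of cells without 1 library, lowest without suffix 2. The share of its cells with at least 4 markers was 94.2% at a threshold of 0 CPTT, 84.5% at 1 CPTT, 74.8% in thinned cells and 90.04 to 94.3% without 1 library, highest without suffix 2. A Y-linked UMI was found in 62.3% of cells as deposited, in 5.50% of thinned cells when 2 UMIs were asked for, and in 22.9 to 28.1% without 1 library. Of the log2 ratios of 100 named genes, recomputed under 7 settings each, none of those called 2-fold changed sign, and 260 of 700 values lay outside the counting interval. Among genes not called, *P2ry12* went from -1.32 to 0.54 by the mean of cells and 0.53 in thinned cells, *Selp* from -0.49 to 0.07 without suffix 1, and *Hba-a2* from 1.15 to -1.55 without the cells rich in embryonic globin. The largest shift was 3.45 (*S100a8* without suffix 2).

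Chosen after seeing the data, leaving out the 5 cells rich in embryonic globin gave 619 genes higher and 1343 lower than in all other clusters, and ordering cells without *Pf4* gave 571 genes higher and 456 lower in the top tertile. Each library held cells of both groups of every comparison, and ratios were computed within each library. No test was run on these pairs, because the clusters and tertiles were defined from the same cells' counts. The limits lie in that definition, in the unknown times of the cells and in depth, which was lowest in suffix 2.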
